A study of Mus musculus with 13 samples.

Results

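The AP-1 and BATF factors were examined in M2 CD4SP thymocytes, the mature CD69-MHCI+ stage of CD4 single-positive cells, as 10 genes chosen by name: Fos, Fosb, Fosl1, Fosl2, Jun, Junb, Jund, Batf, Batf3 and Atf3. They are 10 of the 35906 genes to which the deposited transcripts could be assigned, and all 10 were found. RNA was sequenced in 13 libraries, each from the sorted cells of 1 mouse. All mice carried the Lm54 T cell receptor transgene on a Rag1-/- background, so that their T cells share 1 receptor, which recognizes a listeriolysin O (LLO) peptide on I-Ab. CtslΔTEC mice lack cathepsin L in thymic epithelial cells, through a Foxn1-cre transgene that is active in the epithelium and not in the thymocytes sequenced here, and the controls, called WT in the labels, are Ctsl fl/fl. The labels give no age for these mice. Unstimulated cells came from 5 CtslΔTEC mice (1 to 5) and 4 WT mice (1 to 4). Stimulated cells came from 2 CtslΔTEC mice (6 and 7) and 2 WT mice (5 and 6) and were cultured for 4 h with plate-bound LLO:Iab monomer at 1 μg/ml and soluble anti-CD28 at 250 ng/ml. No library came from cells cultured for 4 h without stimulus, so stimulation and culture cannot be told apart.

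AP-1 is a dimer of basic leucine zipper proteins that binds short DNA motifs and activates or represses transcription. FOS proteins (Fos, Fosb, Fosl1, Fosl2) pair with JUN proteins (Jun, Junb, Jund) and not with each other, whereas JUN proteins also pair among themselves. BATF, BATF3 and ATF3 pair with JUN proteins as well, and BATF:JUN dimers bind composite sites together with IRF4 or IRF8. In T cells Fos and Jun are immediate-early genes that follow T cell receptor and MAP kinase signals within minutes, and AP-1 acts with NFAT on genes such as Il2.

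The files carry 3 dates that the labels do not explain. CtslΔTEC mice 1 and 3 and WT mouse 4 share the first date, the other 6 unstimulated libraries the second, and the 4 stimulated libraries the third, which leaves stimulation and date inseparable. The libraries held between 25692380 and 39127833 estimated counts in unstimulated cells and between 8085463 and 27184520 in stimulated cells. Cd4 was at 327 to 604 TPM (a level scaled for transcript length and library size) and Cd3e at 457 to 858 TPM in all 13 libraries. The summed level of 9 markers of CD4+CD8+ double-positive (DP) thymocytes was 278 to 362 TPM in unstimulated CtslΔTEC and 97.5 to 128 TPM in unstimulated WT libraries, and 63.0 to 66.3 against 26.8 to 33.5 TPM after stimulation. Of 8 of these genes tested in unstimulated cells, 7 were higher in CtslΔTEC cells and none lower. In stimulated cells 9 were tested, of which 3 were higher, Cd8b1 (1.90 on the log2 scale), Cd8a (2.59) and Arpp21 (1.15), and Cd1d1 was lower (−0.65). Over all genes, 14.8% passed an adjusted p of 0.1 (edgeR) in unstimulated cells, 6.42% higher and 8.36% lower in CtslΔTEC cells. The share in stimulated cells was 13.3%, with 2.77% higher and 10.6% lower. The marker counts here are to be read against these shares. Cd8a was at 12.6 to 17.9 TPM in unstimulated CtslΔTEC and 2.15 to 2.42 TPM in unstimulated WT cells, and Rag2, a defining DP gene, at 0.0414 to 1.12 and 0.0 to 0.153 TPM. Of 12 markers of mature M2 CD4SP cells, 2 were higher and 7 lower in unstimulated CtslΔTEC cells (median −0.40). The lower ones were led by Cd5 (−1.07), Il7r (−1.08) and Ccr7 (−0.37). H2-K1 went the other way, at 1542 to 2249 TPM in unstimulated CtslΔTEC and 1068 to 1541 TPM in unstimulated WT libraries. B2m (1370 to 1952 against 1192 to 1402 TPM) and Cd3e (745 to 858 against 496 to 758 TPM) also reached higher levels. After stimulation 2 of the 12 were higher and 4 lower (median −0.21). The summed level of the 12 was 7955 to 9118 TPM in unstimulated CtslΔTEC and 7409 to 8484 TPM in unstimulated WT libraries. In bulk libraries fewer cells of a type and less RNA per cell cannot be told apart. The summed level of 4 Y-linked genes was high in all 5 unstimulated CtslΔTEC mice, in WT mouse 3 and in the stimulated cells of CtslΔTEC mouse 7 and WT mouse 6, and low in the other 5 mice. The part of DP transcripts, maturity markers, date and sex in the differences below was not tested except where a value is given. Ctsl itself was detected in all 13 libraries, at 10.7 to 16.5 TPM in unstimulated CtslΔTEC and 5.41 to 9.03 TPM in unstimulated WT thymocytes, and since thymocytes are not the deleted cells it does not check the genotype labels.

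The 10 genes lie on 7 chromosomes of the mouse genome (GRCm38, GENCODE M21): Batf3 (ENSMUSG00000026630) and Atf3 (ENSMUSG00000026628) on chromosome 1, Jun (ENSMUSG00000052684) on 4, Fosl2 (ENSMUSG00000029135, 32135801 to 32157842, plus strand) on 5, Fosb (ENSMUSG00000003545) on 7, Jund (ENSMUSG00000071076) and Junb (ENSMUSG00000052837) on 8, Fos (ENSMUSG00000021250) and Batf (ENSMUSG00000034266, 85686669 to 85709087, plus strand) on 12 and Fosl1 (ENSMUSG00000024912, 5447547 to 5455946, plus strand) on 19. Jun, Junb and Jund have a single exon in the transcript that took nearly all of their reads. Ccdc85b overlaps Fosl1, Junos overlaps Jun, Prdx2 overlaps Junb and Gm11175 overlaps Jund, each on the opposite strand, and since the study's methods give default parameters, under which kallisto does not use strand, reads of these pairs cannot be told apart where they overlap.

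The sequence before the annotated start is shown for Fos, Fosb, Jun and Junb, which differed between unstimulated libraries of the 2 dates (below). Jund differed too, but its window does not hold the annotated gene start. It is the part of a RefSeq promoter window (GRCm38.p6, 250 bases before to 50 after the RefSeq start) that lies upstream of the start in GENCODE M21. Capitals mark the short form TGACG of the cyclic AMP response element, the TATAAA box, and TGACATCA, a known variant of the AP-1 site in the Jun promoter.
Fos (chr12:85473640-85473889, plus strand): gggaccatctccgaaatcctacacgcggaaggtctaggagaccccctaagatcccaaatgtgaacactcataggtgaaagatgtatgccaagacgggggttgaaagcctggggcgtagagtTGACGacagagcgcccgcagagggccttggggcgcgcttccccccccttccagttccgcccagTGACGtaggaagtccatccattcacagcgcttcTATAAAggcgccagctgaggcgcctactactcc
Fosb (chr7:19310052-19310295, minus strand): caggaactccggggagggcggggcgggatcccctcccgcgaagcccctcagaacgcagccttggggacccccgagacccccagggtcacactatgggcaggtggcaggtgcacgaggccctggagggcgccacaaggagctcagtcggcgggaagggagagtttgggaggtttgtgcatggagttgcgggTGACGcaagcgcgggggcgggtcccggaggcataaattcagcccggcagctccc
Jun (chr4:95052223-95052472, minus strand): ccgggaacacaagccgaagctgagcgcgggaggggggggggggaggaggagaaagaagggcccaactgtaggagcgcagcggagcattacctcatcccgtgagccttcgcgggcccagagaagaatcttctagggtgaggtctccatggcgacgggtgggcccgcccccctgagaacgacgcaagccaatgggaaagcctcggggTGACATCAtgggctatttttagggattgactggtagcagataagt
Junb (chr8:84978719-84978998, minus strand): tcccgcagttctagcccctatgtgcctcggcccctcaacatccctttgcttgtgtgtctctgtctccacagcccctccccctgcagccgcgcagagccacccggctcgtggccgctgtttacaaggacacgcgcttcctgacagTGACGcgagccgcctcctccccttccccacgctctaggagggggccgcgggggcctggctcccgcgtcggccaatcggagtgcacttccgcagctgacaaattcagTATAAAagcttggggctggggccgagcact
Windows of 300 bases were available for 9 of the 10 genes and were searched on both strands. Those of Fosl2, Jund, Batf3 and Atf3 do not hold the gene start of GENCODE M21, so that the counts over 9 windows include 4 that lie elsewhere in or near the gene. None of the 9 held the consensus AP-1 site TGACTCA, which 5.20% of all 32851 windows held. None held the full cyclic AMP response element TGACGTCA (1.79% of all windows), which contains the short form, or a CArG box, the site of serum response factor (1.63%). TGACG was in 5 of 9 windows (Fos, Fosb, Junb, Batf and Atf3) and in 20.8% of all windows. TGACATCA was in the Jun window alone among the 9 and in 3.62% of all windows, and TATAAA was in the Fos and Junb windows and in 13.6% of all windows. A match is a description of the letters and not a shown binding site. Sequence outside the windows was not searched, so a site missing from them may lie further upstream.

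Transcripts of Jund and Junb were the most abundant of the 10 genes in every library. Together they made up most of the summed TPM of the 10 genes. Fosb, Fosl1, Fosl2, Atf3 and Batf3 were low or undetected before stimulation. Jun lay above Fos and Batf in first-date libraries, below Batf in second-date libraries and below both after stimulation. In second-date unstimulated libraries Jund took 59.6% to 74.0% and Junb 17.7% to 26.4% of the summed TPM. In the 3 first-date libraries Junb took 41.4% to 44.5% and Jun 13.01% to 16.1%. After stimulation Junb took 36.9% to 43.7%, Jund 38.7% to 43.1% and Fosl2 6.36% to 10.0%. The summed level was 316 to 465 TPM in second-date libraries, 1190 to 1986 TPM in first-date libraries and 1004 to 1167 TPM after stimulation.

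**Figure D1:**
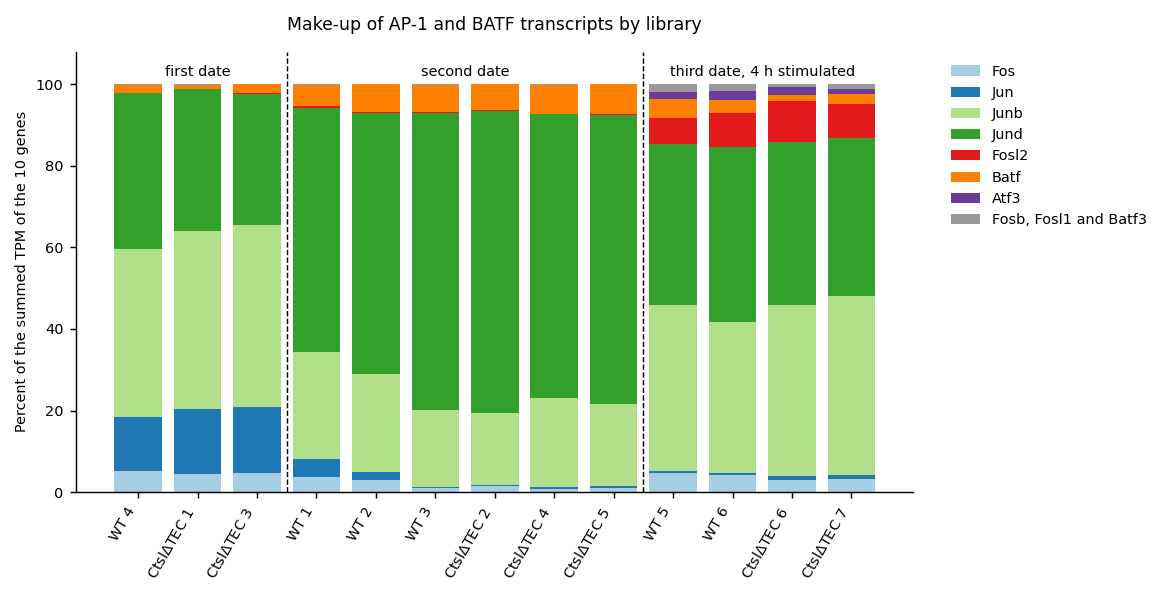
Stacked bars give the percent of the summed TPM of the 10 genes that each gene took, with 1 bar per library ordered by date. Jund takes 59.6% to 74.0% in the 6 second-date libraries, and Fosl2 becomes visible only in the 4 stimulated libraries.

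The first question is how the factors differed between unstimulated CtslΔTEC and WT cells. Fosl2, which encodes a FOS protein that lacks the strong activation domain of Fos, was lower in CtslΔTEC cells. In CtslΔTEC mice 1 to 5 it was at 0.737, 0.426, 0.429, 0.295 and 0.361 TPM. In WT mice 1 to 4 it was at 2.76, 1.33, 1.21 and 1.80 TPM. Each CtslΔTEC mouse lay below each WT mouse. The counts behind these levels were 45 to 103 per CtslΔTEC and 154 to 435 per WT library. The mean was 0.450 ± 0.170 TPM (SD, n = 5) in CtslΔTEC and 1.78 ± 0.71 TPM (SD, n = 4) in WT cells. The log2 fold change was −2.19 (SE 0.25), 4.58-fold lower in CtslΔTEC cells, with an adjusted p of 0.00017 (edgeR's quasi-likelihood test, Benjamini-Hochberg adjustment over 13152 genes). By a two-sided exact permutation test of log2 CPM (counts scaled to library size) over the 126 splits of 9 mice, p was 0.00794, the smallest p that 5 mice against 4 allow. Values that did not overlap between genotypes were seen for 13.7% of the 13152 genes tested (7.7% with CtslΔTEC lower).

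Of the 10 genes, 7 had enough counts to be tested in unstimulated cells and Fosl2 alone passed an adjusted p of 0.1, against 14.8% of all genes (6.42% higher and 8.36% lower in CtslΔTEC cells). The median log2 fold change of the 7 was −0.01, and that of all genes 0.01. Batf, whose protein binds with IRF4 at composite sites, was at 20.2 to 26.1 TPM (median 23.6) in CtslΔTEC and at 24.3, 26.6, 28.6 and 28.5 TPM in WT mice 1 to 4. These ranges overlap, and the log2 fold change of −0.25 (SE 0.10) had an adjusted p of 0.17 by edgeR, while the exact permutation test of this gene alone gave p = 0.0476 before adjustment. Batf did not differ between the dates (log2 difference 0.11, SE 0.11, adjusted p 0.60, edgeR) and had the smallest SD of log2 CPM of the 7 genes within each genotype. In the 3 second-date WT mice the order of mean levels was Jund (281 TPM), Junb (99.5), Batf (26.5), Fos (11.1), Jun (9.66), Fosl2 (1.77) and Fosb (0.426), and neighbours overlapped in range for Fos and Jun and for Jun and Fosl2. In WT mouse 4, of the first date, Jun (187 TPM) and Fos (75.9 TPM) lay above Batf (28.5 TPM).

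**Figure D2:**
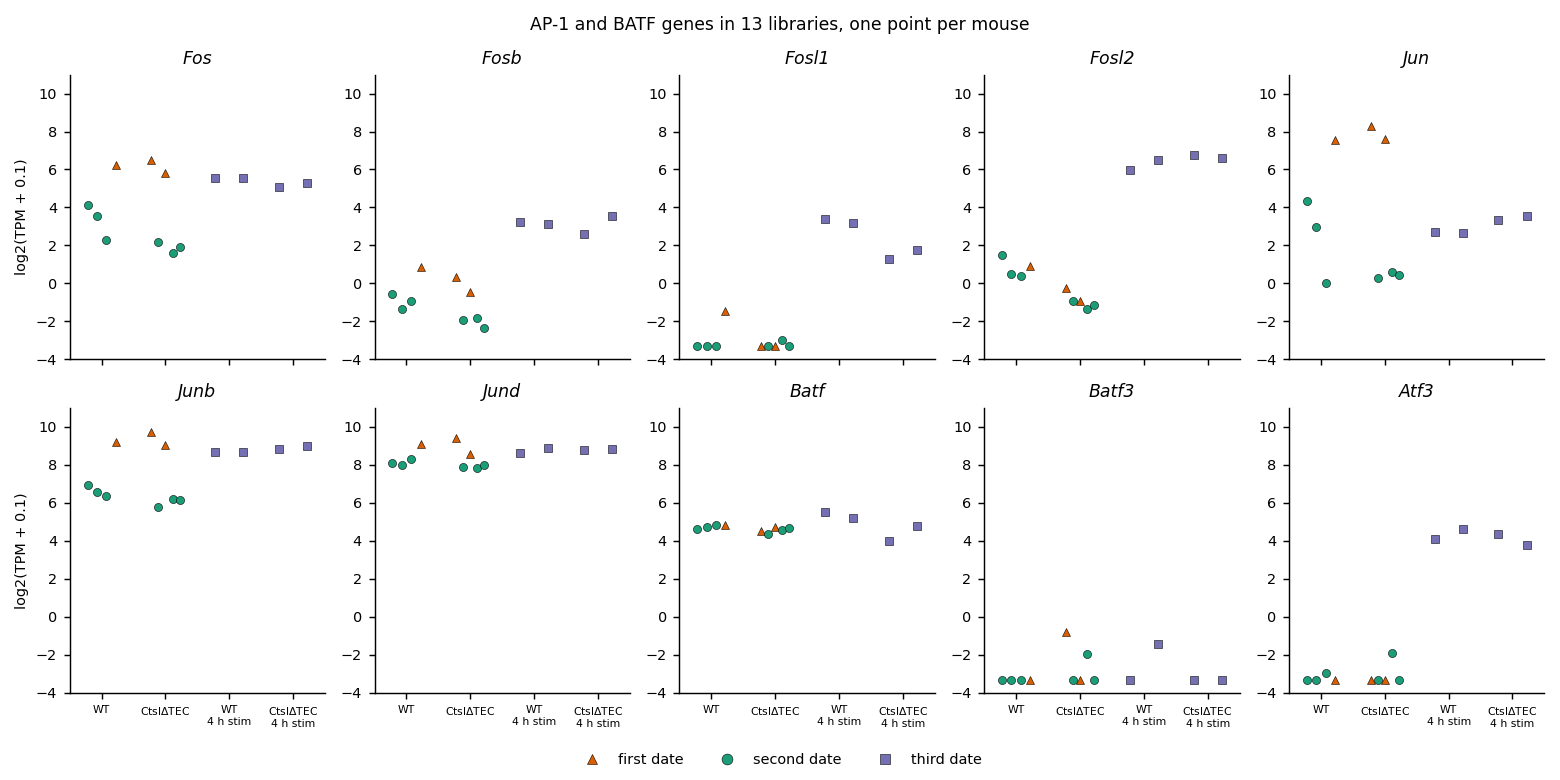
Each panel shows 1 gene and each point 1 mouse, as log2(TPM + 0.1), by genotype and stimulation, with colour and shape for the date. Fosl2 falls apart by genotype before stimulation, whereas Fos, Jun and Junb fall apart by date, and Fosl1, Fosl2 and Atf3 are high only in stimulated cells.

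The other FOS and JUN genes differed between the 2 dates of the unstimulated libraries. Jun was at 317 and 192 TPM in CtslΔTEC mice 1 and 3 and at 187 TPM in WT mouse 4, the first-date libraries. In second-date libraries it was at 1.10, 1.43 and 1.26 TPM in CtslΔTEC mice 2, 4 and 5 and at 20.3, 7.75 and 0.909 TPM in WT mice 1 to 3. All 3 first-date libraries were higher than all 6 others, and WT mouse 3 was the lowest library, below the 3 second-date CtslΔTEC mice. Junb was at 864, 530.0 and 594 TPM in CtslΔTEC mouse 1, CtslΔTEC mouse 3 and WT mouse 4. It was at 55.8, 72.7 and 71.6 TPM in second-date CtslΔTEC mice 2, 4 and 5 and at 123, 95.1 and 80.8 TPM in WT mice 1 to 3. Here the second-date genotypes did not overlap. Fos was at 89.1, 57.2 and 75.9 TPM in the first-date libraries, in the same order. It was at 4.46, 2.96 and 3.65 TPM in second-date CtslΔTEC mice 2, 4 and 5 and at 17.2, 11.4 and 4.71 TPM in WT mice 1 to 3. WT mouse 3 again lay closest to the CtslΔTEC mice. It alone of the unstimulated WT mice had high Y-linked genes, as every unstimulated CtslΔTEC mouse did, and the part of sex in this order was not tested. Jund, which is expressed constitutively in many cells, was at 384 to 691 TPM in first-date and 232 to 313 TPM in second-date libraries. Fosb was at 0.621 to 1.74 TPM in first-date and 0.0997 to 0.568 TPM in second-date libraries.

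With genotype in the model, 5 of the 7 genes were higher in first-date than in second-date libraries and none lower, against 6.97% of all genes that differed in either direction (2.99% higher and 3.98% lower). For Fos, Fosb, Jun, Junb and Jund the 2 dates did not overlap, as was the case for 6.67% of all genes (3.35% with the first date higher and 3.32% lower). The log2 differences were 6.45 (SE 0.79) for Jun, 3.79 (SE 0.36) for Fos, 3.09 (SE 0.19) for Junb, 2.55 (SE 0.31) for Fosb and 1.09 (SE 0.15) for Jund. The adjusted p values by edgeR lay between 1.29e-05 for Junb and 0.00299 for Jund. For Fosl2 the log2 difference was 0.32 (SE 0.25, adjusted p 0.49, edgeR). Of 19 other immediate-early genes tested, 12 were higher in first-date libraries and none lower, with a median log2 difference of 0.88 beside 0.01 over all genes. Dusp1, a MAP kinase phosphatase, was higher by 3.30, Ier2 by 1.17 and Zfp36, which promotes mRNA decay, by 1.01 on the log2 scale. Among 20 other bZIP genes 5 were higher, led by Atf4 (1.02), Mafk (0.62) and Cebpb (1.53), and 2 lower, Atf7 (−0.33) and Creb1 (−0.32). Of the 23 kinases and factors upstream of AP-1, none differed between the dates by an adjusted p of 0.1 (edgeR). Hemoglobin and other erythroid transcripts also moved with the date, 4 of 5 tested being higher in first-date libraries, and 3 of 5 myeloid transcripts tested were lower. Myeloid transcripts moved with genotype too, 2 of 5 being higher and Itgam (−0.77) lower in unstimulated CtslΔTEC cells. With date in the model (median 1.42) and in the second date alone (median 1.44), 4 were higher and 1 lower. The shares of all genes called were 14.8%, 20.6% and 14.7%, in this order. The summed level of 8 myeloid markers was 3.42 to 6.51 TPM in unstimulated CtslΔTEC and 3.60 to 5.65 TPM in unstimulated WT libraries, and its part in the differences was not tested. What the date stands for was not tested.

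With date in the model of the 9 libraries, 3 of the 7 genes were lower in CtslΔTEC cells and none higher, against 20.6% of all genes called in either direction (9.42% higher and 11.2% lower). Fosl2 was lower by a log2 fold change of −2.26 (SE 0.24), Fosb by −1.49 (SE 0.31) and Fos by −1.16 (SE 0.36), with adjusted p values of 8.9e-05, 0.0082 and 0.050 (edgeR). Exact permutation over the 60 splits that keep each date's numbers gave p = 0.0167 for Fosl2, the smallest p these splits allow. The same exact permutation gave p = 0.0333 for Fosb, p = 0.05 for Batf, p = 0.0667 for Fos, p = 0.15 for Junb, p = 0.317 for Jund and p = 0.367 for Jun. Among the 6 second-date libraries alone, 6 of the 7 genes were lower in CtslΔTEC cells, against 14.7% of all genes (6.2% higher and 8.54% lower), and Batf alone was not called (log2 fold change −0.19, SE 0.12). The log2 fold changes there were −2.95 (SE 0.78) for Jun, −2.40 (SE 0.30) for Fosl2, −1.82 (SE 0.39) for Fosb, −1.67 (SE 0.35) for Fos, −0.58 (SE 0.14) for Junb and −0.24 (SE 0.08) for Jund. Jund was close to the threshold (adjusted p 0.093, edgeR). Fosl2, Fos, Fosb, Junb and Jund did not overlap between the genotypes within the second date, as was the case for 29.7% of all genes (15.4% with CtslΔTEC lower), and an exact permutation test of 3 mice against 3 cannot go below p = 0.1. For Jun, whose genotypes overlapped there, the exact permutation test gave p = 0.4. The first date holds 1 WT mouse and gives no test of its own. There Fosl2 was at 0.737 and 0.429 TPM in CtslΔTEC and 1.80 TPM in WT cells, while Jun was at 317 and 192 against 187 TPM.

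**Figure D3:**
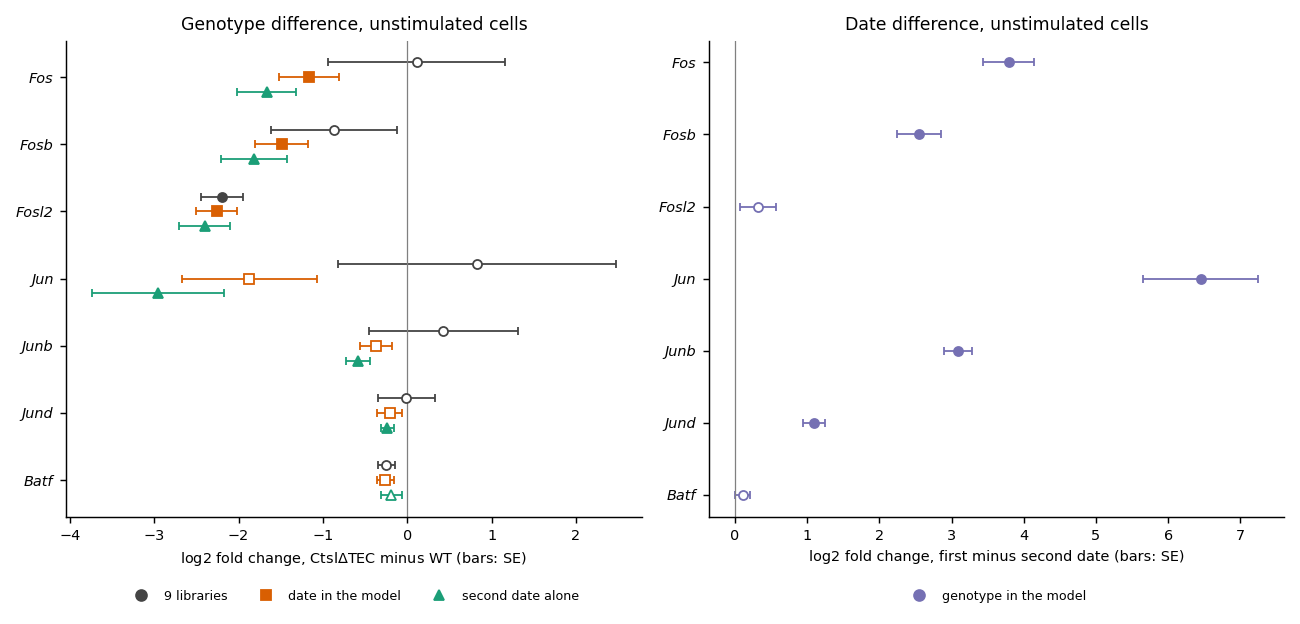
The left panel gives log2 fold changes, CtslΔTEC minus WT, in unstimulated cells from 9 libraries, from 9 libraries with date in the model and from the 6 second-date libraries, and the right panel the difference of the dates. Bars are standard errors and filled symbols passed an adjusted p of 0.1, and Fosl2 passes in all 3 fits of genotype (−2.19, −2.26 and −2.40) and not for date.

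Other genes of the pathway were counted from lists, to be read against the 14.8% of all genes called (6.42% higher and 8.36% lower). Of 20 other bZIP genes tested in unstimulated cells, 2 were higher in CtslΔTEC cells (among them Bach1, which encodes a repressor, 0.25 on the log2 scale) and 2 lower (Atf6, a sensor of endoplasmic reticulum stress, −1.18 and Maf, −0.67), with a median of −0.02. Of 23 upstream kinases and factors, 3 were lower and none higher: Map2k1, which encodes MEK1 (−0.40), Srf (−0.45) and Mapk3, which encodes ERK1 (−0.27), with a list median of −0.05. Of 13 genes of AP-1 turnover and partners, 3 were lower and none higher, Irf4 (−0.96), Runx1 (−0.28) and Runx3 (−0.21), with a median of −0.16. This number was 6 without CtslΔTEC mouse 1, where 18.1% of all genes were called, 1 without WT mouse 2 (11.4%), 1 by limma on either TPM scale (11.4% and 11.2%) and 1 with mouse number as a block (7.99%). Of the 9 tested among 20 T cell genes with known AP-1 or BATF sites, 4 were higher and none lower, led by Il2ra (2.0003), Bcl6 (0.79) and Prdm1 (0.45), with a median of 0.45. Among 19 other immediate-early genes 1 was higher, Nr4a3 (0.38), with a median of 0.03, and it was not called without CtslΔTEC mouse 1 or 2 or without WT mouse 2, 3 or 4. In this list the direction turned with the date, to 1 higher and 2 lower with date as a factor (median −0.08) and to none higher and 3 lower in the second date alone (median −0.08). With the Y-linked covariate, where calls fell to 3.26% of all genes, they were 1 in the bZIP list, 1 in the upstream list, none among partners, none among immediate-early genes and 3 among T cell genes. The median over all genes was 0.01.

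Pearson correlations of log2 CPM over the 9 unstimulated libraries described which of 9485 genes followed each factor. The points share date and genotype, so r over the 6 second-date libraries is given second. The genes were picked by r over all 9 libraries. The 6 are part of these 9 and hold both genotypes, so the second r is no separate support. Fosl2 was most like Fam129a (0.978 and 0.978), Map3k5, which encodes the stress kinase ASK1 (0.974 and 0.979), and Smpd1, an acid sphingomyelinase (0.973 and 0.969). Fos was most like Atf4, a stress-induced bZIP factor (0.988 and 0.948), Phlda1 (0.978 and 0.913) and Dusp1 (0.970 and 0.884). Junb was most like Dusp1 (0.994 and 0.979), Ppp1r15a, a phosphatase subunit of the stress response (0.993 and 0.881), and Eif1 (0.986 and 0.948). Batf was most like Ube2v1 (0.966 and 0.978), Ctsz, a cathepsin (0.959 and 0.962), and Bsg (0.950 and 0.934).

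The second question is how the factors responded to stimulation. Atf3 and Fosl1 were at or near 0 in unstimulated cells and detected in all 4 stimulated libraries. Atf3, a stress-induced repressor and activator, had 0 counts in 7 of the 9 unstimulated libraries, 2 in CtslΔTEC mouse 4 and 1 in WT mouse 3. After stimulation it was at 20.4 and 13.5 TPM in CtslΔTEC mice 6 and 7 and at 17.3 and 24.5 TPM in WT mice 5 and 6. Ratios were pooled per genotype and corrected for library totals scaled by TMM factors. In WT cells 1062 counts in stimulated against 1 in unstimulated cells gave 3892 (95% interval 697 to 153881). In CtslΔTEC cells 506 against 2 counts gave 1576 (434 to 13050). Fosl1, a FOS protein without the Fos activation domain, had 1 count in WT mouse 4, 1 in CtslΔTEC mouse 4 and 0 in the other 7. After stimulation it was at 2.30 and 3.34 TPM in CtslΔTEC mice 6 and 7 and at 10.5 and 8.97 TPM in WT mice 5 and 6. The pooled ratios were 1114 (198 to 44151) from 304 against 1 counts in WT and 449 (77.98 to 17959) from 72 against 1 counts in CtslΔTEC cells. These intervals cover counting error only. Batf3 had at most 3 counts in any library and was listed at 0 in 10 of 13.

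Among Fosb, Fosl1, Fosl2, Batf and Atf3, Fosl2 reached the highest level after stimulation. It went from 0.295 to 0.737 TPM in unstimulated to 110.0 and 98.4 TPM in stimulated CtslΔTEC cells, and from 1.21 to 2.76 TPM to 63.8 and 90.5 TPM in WT cells. The response was a log2 fold change of 7.96 (SE 0.25) in CtslΔTEC and 5.46 (SE 0.24) in WT cells, with adjusted p values of 1.8e-12 and 9.5e-11 (edgeR). Fosb was at 6.01 and 11.7 TPM in stimulated CtslΔTEC and 9.31 and 8.74 TPM in stimulated WT cells. Its response was 4.45 (SE 0.72, adjusted p 6.1e-05) and 3.59 (SE 0.75, adjusted p 0.00068, edgeR) on the log2 scale. Batf rose in WT cells, from 24.3 to 28.6 TPM to 46.4 and 36.2 TPM, a log2 fold change of 0.72 (SE 0.19, adjusted p 0.0045, edgeR). Without stimulated WT mouse 5 its log2 fold change was 0.43 (adjusted p 0.13, edgeR). In CtslΔTEC cells Batf was at 16.0 and 27.5 TPM after stimulation and 20.2 to 26.1 TPM before (log2 fold change 0.03, SE 0.19).

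Of the 9 genes tested, 5 rose in WT cells (Fosb, Fosl1, Fosl2, Batf and Atf3), against 67.7% of all genes called in either direction (32.9% higher and 34.8% lower). In CtslΔTEC cells 4 rose (all of these but Batf), against 71.2% called in either direction (32.9% higher and 38.2% lower). None fell. The median log2 fold change of the 9 was 0.96 in WT and 0.78 in CtslΔTEC cells. Fos, Jun, Junb and Jund did not pass when all 9 unstimulated libraries were the baseline. Stimulated cells held Fos at 33.5 and 38.8 TPM in CtslΔTEC and 46.1 and 46.2 TPM in WT cells, between the 2 dates of unstimulated cells. Junb was at 459.5 and 510.1 TPM in CtslΔTEC and 409 and 408 TPM in WT cells, also between the 2 dates. Jun was at 9.85 and 11.5 TPM in CtslΔTEC cells, above the second-date CtslΔTEC libraries (1.10 to 1.43 TPM). In WT cells Jun was at 6.38 and 6.13 TPM, within the range of the second-date WT libraries (0.909 to 20.3 TPM). Jund was at 440.3, 452, 395 and 477 TPM in the 4 stimulated libraries.

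With the 6 second-date libraries as the baseline, an alternative chosen after seeing the data, 8 genes rose in WT cells and 8 in CtslΔTEC cells, against 69.8% of all genes called in WT cells (33.6% higher and 36.1% lower) and 72.4% in CtslΔTEC cells (35.3% higher and 37.1% lower). Fos was then higher by 2.27 (SE 0.31) in WT and 3.51 (SE 0.33) in CtslΔTEC cells, Junb by 2.16 (SE 0.15) and 3.05 (SE 0.15) and Jund by 0.75 (SE 0.09) and 1.09 (SE 0.09) on the log2 scale. Jun rose in CtslΔTEC cells, by 3.27 (SE 0.74, adjusted p 0.0016, edgeR), and was at −0.51 (SE 0.72, adjusted p 0.56) in WT cells, whose second-date baseline ran from 0.909 to 20.3 TPM. Batf was again not called in CtslΔTEC cells (0.08, SE 0.22). A model of all 13 libraries with date as a factor called 8 in each genotype too (69.5% of all genes in WT and 71.6% in CtslΔTEC cells), but since the stimulated libraries have a date of their own it also measures against the second date and adds no separate support. Without WT mouse 4, the only first-date WT library, 8 genes were called in WT cells beside 67.8% of all genes, with Fos (adjusted p 0.0998) and Jund (0.0796, edgeR) close to the threshold. Whether Fos, Junb and Jund were called, and the direction of Jun in CtslΔTEC cells, thus depended on which unstimulated libraries were the baseline.

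**Figure D4:**
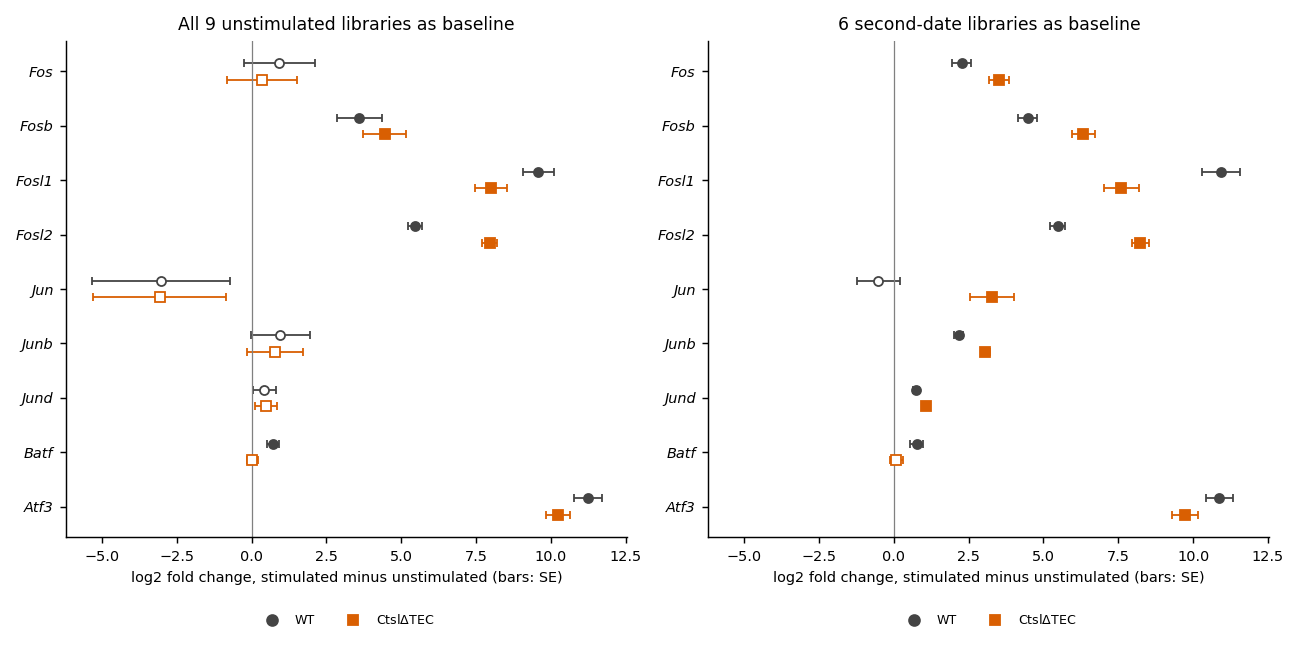
Log2 fold changes of stimulated against unstimulated cells are given for 9 genes in WT and CtslΔTEC cells, with standard errors, with all 9 unstimulated libraries (left) or the 6 of the second date (right) as the baseline. Filled symbols passed an adjusted p of 0.1, Fosl2 is at 5.46 and 7.96 on the left, and the values of Fosl1 and Atf3, with 1 or 2 unstimulated counts per genotype, depend on the prior count of the fit.

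The lists were read against the 67.7% of all genes called in WT (32.9% higher) and 71.2% in CtslΔTEC cells (32.9% higher). Among 21 other bZIP genes tested, 14 rose and 2 fell in WT cells, and 13 rose and 3 fell in CtslΔTEC cells, with medians of 1.12 and 1.13. Mafg, which encodes a small MAF protein without an activation domain, rose by 2.36 in WT and 2.10 in CtslΔTEC cells, Crem, a cyclic AMP responsive factor, by 2.88 and 3.13, and Bach1 by 2.61 and 3.09 on the log2 scale. Maf fell, with values of −1.56 and −1.80, as did Nfe2l2, with −0.93 and −1.14. Upstream kinases and factors moved in both directions, 8 rising and 10 falling of 23 in WT and 11 and 10 in CtslΔTEC cells, with medians of −0.03 and 0.01. Map2k3, which activates p38, rose by 4.64 and 4.73 and Mapk11, which encodes p38β, by 2.92 and 3.79. Map2k6 had values of −5.50 and −5.10 and Elk3 of −1.96 and −2.82. Among partners, 4 rose and 6 fell of 13 in WT and 6 and 5 in CtslΔTEC cells, with medians of −0.14 and 0.08. Irf4 (4.92 and 5.47), Irf8 (4.41 and 5.61), both partners of BATF:JUN, and Nfatc1 (2.59 and 3.11) rose, while Runx3 (−2.08 and −3.14), Ets1 (−2.37 and −3.58) and Nfatc3 (−1.86 and −2.24) fell. Of 19 other immediate-early genes, 14 rose in WT and 15 in CtslΔTEC cells and none fell, with medians of 2.09 and 2.40. Nr4a3, an orphan nuclear receptor gene induced by T cell receptor signals, rose by 7.64 and 7.94, Myc by 3.76 and 4.13 and Nr4a2 by 8.87 and 10.38. Of 15 tested T cell genes with known AP-1 or BATF sites, 14 rose and 1 fell in each genotype, the latter being Prdm1 (−3.02 and −4.31). Il2ra rose by 8.25 and 6.41, Tnfrsf9, which encodes 4-1BB, by 10.91 and 10.36 and Cd69 by 5.64 and 5.99, and no median is given for this list because fitted values of members near 0 before stimulation depend on the prior count. Transcripts of other cell types also moved. All 5 erythroid genes tested fell in each genotype (medians −2.56 in WT and −3.46 in CtslΔTEC cells). Of 5 myeloid genes tested, 3 fell in WT and 4 in CtslΔTEC cells, and none rose. The part of these transcripts in the responses was not tested. The 2 responses were measured against separate mice. Over all genes the median was 0.01 in WT and −0.06 in CtslΔTEC cells.

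The third question is whether stimulated CtslΔTEC and WT cells differed. Fosl1 and Batf were lower in stimulated CtslΔTEC cells, and none of the 9 tested genes was higher, against 13.3% of all 14241 genes called in either direction (2.77% higher and 10.6% lower). Fosl1, at 2.30 and 3.34 TPM against 10.5 and 8.97 TPM, had a log2 fold change of −1.85 (SE 0.40), 3.60-fold lower, with an adjusted p of 0.0096 (edgeR). It rested on 26 and 46 counts in CtslΔTEC and 78 and 226 counts in WT libraries. Batf, at 16.0 and 27.5 TPM against 46.4 and 36.2 TPM, had a log2 fold change of −0.94 (SE 0.23), 1.92-fold lower, with an adjusted p of 0.021 (edgeR). The Batf call was lost without CtslΔTEC mouse 6 (log2 fold change −0.62, adjusted p 0.19) and without WT mouse 5 (−0.67, adjusted p 0.19, edgeR), whereas Fosl1 ranged from −2.03 to −1.71 with each of the 4 mice left out. Neither gene overlapped between the genotypes, as was the case for 49.6% of all genes (30.2% with CtslΔTEC lower and 19.4% higher) with 2 mice against 2, for which an exact permutation test cannot pass a threshold of 0.05. The median of the 9 genes was −0.02 and that of all genes −0.05.

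In stimulated cells Fosl2 was at 110.0 and 98.4 TPM in CtslΔTEC and 63.8 and 90.5 TPM in WT cells. On the CPM scale the closest libraries, CtslΔTEC mouse 7 and WT mouse 6, were at 418 and 412, of which 8.06% and 3.79% were retained-intron counts, so that no separation of the genotypes is read from these values. Fosl2 had a log2 fold change of 0.30 (SE 0.27, adjusted p 0.56, edgeR). Atf3 was at −0.65 (SE 0.30, adjusted p 0.22, edgeR) and was called lower by DESeq2 (−0.63, adjusted p 0.068). Junb was at 0.25 (SE 1.17) and Jund at 0.04 (SE 0.46), with the spread of the unstimulated libraries in these errors. Fitted on the 4 stimulated libraries alone, 5 genes were called, against 9.58% of all genes (2.88% higher and 6.7% lower). These were Fosl1 (−1.78, SE 0.29), Batf (−0.88, SE 0.26), Atf3 (−0.61, SE 0.19), Fos (−0.43, SE 0.13) and, in the other direction, Jun (0.83, SE 0.18). Fos was then at an adjusted p of 0.082, Atf3 at 0.097 and Batf at 0.080, close to the threshold, and Jun at 0.024 (edgeR).

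**Figure D5:**
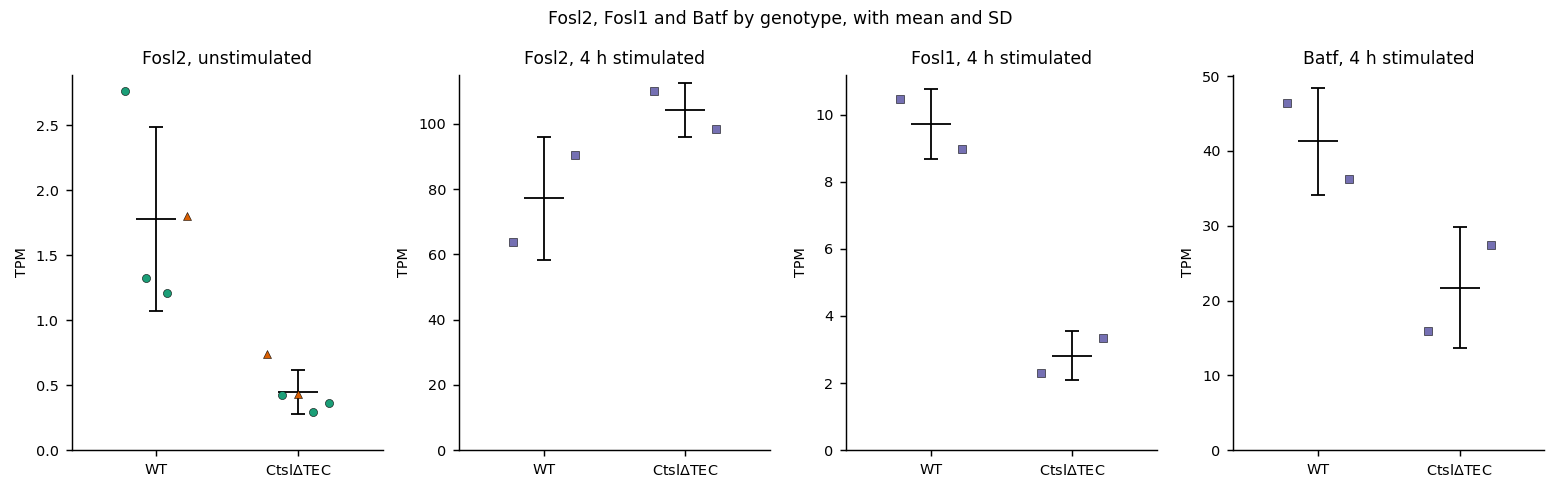
TPM per mouse, with mean and SD, is given for Fosl2 before and after stimulation and for Fosl1 and Batf after stimulation, where triangles mark the first, circles the second and squares the third date. Fosl2 lies at 0.295 to 0.737 TPM in unstimulated CtslΔTEC and 1.21 to 2.76 TPM in unstimulated WT cells, and after stimulation the CtslΔTEC mean lies above the WT mean, without a call.

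The difference of the 2 responses was tested as an interaction of genotype and stimulation. Fosl2 alone of the 9 genes was called, against 6.01% of all genes (1.13% higher and 4.88% lower). Its response was larger in CtslΔTEC cells by 2.50 on the log2 scale (SE 0.35, adjusted p 0.0038, edgeR), or 5.65-fold. The 2 parts of this value were the unstimulated difference of −2.19 and the stimulated difference of 0.30. With each of the 13 mice left out it ranged from 2.25 to 2.68. For Batf the difference was −0.69 (SE 0.28, adjusted p 0.22), and it was called without CtslΔTEC mouse 7 (−1.15, adjusted p 0.049) or without WT mouse 6 of the stimulated cells (−0.95, adjusted p 0.086, edgeR). With the second-date baseline 4 genes were called, against 5.31% of all genes (1.8% higher and 3.51% lower): Fosl2 (2.77, SE 0.37), Jun (3.78, SE 1.05), Fosb (1.86, SE 0.53) and Junb (0.89, SE 0.21), each with the larger response in CtslΔTEC cells.

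Part of the Fosl2 reads was assigned to other transcripts of the gene. Fosl2-201, the protein-coding transcript of 4 exons, took 88.7% of the mean Fosl2 TPM in stimulated WT and 77.6% in stimulated CtslΔTEC cells. Fosl2-203, annotated as a retained intron, took 8.29% and 18.2%. As counts, retained-intron transcripts held 3.59% and 3.79% of Fosl2 in stimulated WT mice 5 and 6 and 7.12% and 8.06% in CtslΔTEC mice 6 and 7. Over all genes these shares were 5.995% to 7.63% in stimulated WT and 7.94% to 8.55% in stimulated CtslΔTEC libraries, so the libraries differed in the same direction. The share of Fosl2 in the unstimulated libraries ran from 0.0% to 23.6% on 45 to 435 counts. With protein-coding transcripts only, the unstimulated Fosl2 difference was −2.34 (adjusted p 7.21e-05, edgeR) and the stimulated one 0.28. For Fosb, Fosb-204, a retained intron, took 22.7% in stimulated WT and 31.9% in stimulated CtslΔTEC cells. Atf3-201 took all Atf3 TPM in stimulated WT and 74.8% in stimulated CtslΔTEC cells.

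In stimulated cells the pathway lists held calls in both directions, beside 13.3% of all genes called (2.77% higher and 10.6% lower). Of 15 tested T cell genes with known AP-1 or BATF sites, 2 were lower in CtslΔTEC cells, Il2 (−3.55) and Tnfrsf4, which encodes OX40 (−0.94), and 2 higher, Bcl6 (0.59) and Ccl4 (1.18). The share of all genes called was 6.31% without CtslΔTEC mouse 6, 8.34% without CtslΔTEC mouse 7, 6.43% without WT mouse 5 and 14.9% without WT mouse 6. Without CtslΔTEC mouse 6 or WT mouse 5 the T cell list held 1 call, and without WT mouse 6 it held 7. Il2, the cytokine gene that AP-1 and NFAT drive together, was at 4.18 and 7.79 TPM in CtslΔTEC and 71.1 and 73.0 TPM in WT cells. Of 13 partners, 3 were lower, Runx3 (−1.27), Ets1 (−1.40) and Nfatc3 (−0.38), and 3 higher, Irf8 (0.91), Nfatc1 (0.54) and Runx1 (0.46). This number fell to 3 without CtslΔTEC mouse 6. Of 23 upstream genes, 5 were lower, among them Elk3 (−0.83), Mapk14, which encodes p38α (−0.55), and Mrtfa (−0.50), and 2 higher, Mapk11 (0.88) and Map3k1 (0.36). The number of calls was 2 without CtslΔTEC mouse 6, 4 without CtslΔTEC mouse 7, 4 without WT mouse 5 and 11 without WT mouse 6. Of 21 other bZIP genes, Atf6 (−1.22) and Maf (−0.92) were lower and Bach1 (0.72) higher. Of 19 other immediate-early genes, Nr4a3 (0.68), Btg2 (0.52) and Nr4a2 (1.25) were higher, and none of the list was called without CtslΔTEC mouse 6 or without WT mouse 5. The list medians were 0.16, 0.05, 0.03, 0.02 and 0.33, in this order, beside −0.05 over all genes. For the interaction, where 6.01% of all genes were called, the lists held 2 calls of 15 T cell genes, 4 of 13 partners, 2 of 23 upstream genes, 1 of 21 bZIP genes and none of 19 immediate-early genes, including Il2ra (−1.83) and Tnfrsf4 (−1.31), Runx3 (−1.06), Irf8 (1.20), Ets1 (−1.22), Runx1 (0.74), Elk3 (−0.86) and Mapk14 (−0.45). With a mouse left out, 2.23% to 8.16% of all genes were called. The upstream list held 1 call without unstimulated CtslΔTEC mouse 2 or 3, unstimulated WT mouse 2 or stimulated CtslΔTEC mouse 6 (4.38%, 3.98%, 4.71% and 2.23% of all genes), and 4 without stimulated WT mouse 6 (8.16%). The bZIP list held 2 without unstimulated WT mouse 4 and none without stimulated CtslΔTEC mouse 6, the T cell list 1 without stimulated CtslΔTEC mouse 6, and the immediate-early list 1 without unstimulated CtslΔTEC mouse 1 or WT mouse 4 (6.12% and 6.08% of all genes). The partners list held 4 or 5 calls with any mouse left out.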

How the data were processed

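The authors quantified transcripts with kallisto 0.48 (the version is from the submitters' processing notes) against an Ensembl annotation and deposited, per transcript and library, estimated counts and TPM, with effective lengths. Estimated counts are not normalized, and TPM is scaled for length and depth by the authors. The labels describe the RNA as polyadenylated and the study's methods as depleted of rRNA.

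Here 116397 of 117497 transcripts were paired with a gene through GENCODE M21 (GRCm38), older than the authors' annotation. Estimated counts were summed per gene and rounded, and TPM summed. The 1100 others were left out of the tests. edgeR 4.0.16 in R 4.3.3 (TMM, filterByExpr, quasi-likelihood, Benjamini-Hochberg, threshold 0.1) tested all genes over 9 unstimulated libraries, and over all 13 in a 4-group model for the other comparisons. Standard errors came from log2 fold changes and F. Log2 CPM used a prior count of 2. Each group's replicates are separate mice, numbered in the labels, and no 2 libraries were identical. The 10 genes and the lists were chosen with earlier results of these data known. All 10 genes are named, and from each list up to 3 called genes per direction with the smallest p. From each list the counts are those over all genes tested. Genes like a member were the 3 with the highest Pearson r among genes whose mean log2 CPM reached 2. Alternatives were DESeq2 1.42.0, limma 3.58.1 on log2(TPM + 1) and log2(TPM + 0.1), other scalings and filters, protein-coding transcripts, date, a Y-linked covariate, thinning, mouse number as a block and leaving out each mouse. The edgeR fits of genotype in unstimulated cells (with and without date), of genotype in stimulated cells and of the interaction were checked on simulated data. The other tests were not. Mouse numbers 1 to 4 recur in both unstimulated groups, without a label that ties them. One gene of the bZIP list is not reported here by name.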

Additional observations from a re-analysis of the deposited data

Results flagged for a closer look

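The response of Fosl2 differed between the genotypes. The test of the difference itself gave 2.50 on the log2 scale, larger in CtslΔTEC than in WT cells, with an adjusted p of 0.0038 (edgeR's quasi-likelihood test over 13 libraries).

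In the 14 sets of unstimulated mice examined for a single distant mouse (7 genes in 2 genotypes), none was found by Dixon's criterion at the 95% level, where chance gives 0.7. These sets mix dates, with 2 first-date CtslΔTEC mice and 1 first-date WT mouse. The criterion therefore says little about distant mice within a date.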

How the results depend on the processing

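Fosl2 was called lower in unstimulated CtslΔTEC cells under the 14 alternatives run for it and with each mouse left out. With limma on log2(TPM + 1), which understates low genes, it was at −0.91. With the mean of Y-linked genes as a covariate its log2 fold change was −1.62. The number of members called in unstimulated cells was 1, and it was 3 with date as a factor and 6 in the second date alone. Fos then turned to −1.16 and −1.67, and in the second date Jun to −2.95 and Junb to −0.58. In stimulated cells it was 2, with 3 by DESeq2 (18.2% of all genes against 13.3%), which added Atf3 (−0.63), 5 from the 4 stimulated libraries alone and 1 to 2 with a mouse left out. In the WT response it was 5, with 8 under date as a factor (69.5% of all genes against 67.7%), 8 with the second-date baseline and 4 to 8 with a mouse left out. In the CtslΔTEC response it was 4, with 8 and 8 under these settings and 4 to 5 with a mouse left out, and Jun turned to 2.53 and 3.27. For the interaction it was 1, with 2 by limma on log2(TPM + 1) (6.17% of all genes against 6.01%), which added Fosl1 (−1.42), 4 with the second-date baseline and 1 to 2 with a mouse left out. Jun there turned to 3.78 and Junb to 0.89. For the responses, date as a factor repeats the second-date baseline. In unstimulated cells the calls in the bZIP list moved from 4 to 7, in the upstream list from 3 to 5 and in the immediate-early list from 1 to 3 with date as a factor (20.6% of all genes against 14.8%). The partners list moved from 3 to 5 by DESeq2 and to 1 with the replicate block, and the immediate-early list to 0 with the block, without the filter or with thinning. In stimulated cells the T cell list moved from 4 to 7 and the immediate-early list from 3 to 1 by limma on log2(TPM + 1), the latter also on log2(TPM + 0.1), and the upstream list from 7 to 11, the immediate-early list from 3 to 6 and the bZIP list from 3 to 5 with the second-date baseline (16.7% of all genes), the last also with date as a factor and with the 4 stimulated libraries alone, where the upstream list held 4. For the interaction the T cell list moved from 2 to 6 by limma on log2(TPM + 1) and to 5 on log2(TPM + 0.1). The upstream list moved from 2 to 4 by DESeq2 (8.69% of all genes) and to 1 with protein-coding transcripts or thinning. The bZIP list moved from 1 to 2 by DESeq2, without the filter and with the second-date baseline, to 3 with date as a factor and to 0 with the Y-linked covariate or thinning, and the immediate-early list from 0 to 1 by DESeq2, 2 with date as a factor and 3 with the second-date baseline. The cause of these moves was not tested. With mouse number as a replicate block the number was 1, as without it, and Fosl2 was at −2.13. The correlations of deviations of same-numbered mice 1 to 4 were −0.13, 0.30, −0.07 and −0.15. Mice 1, 3 and 4 differ in date between the genotypes, so these values cannot decide whether the numbers pair the mice. No paired analysis was possible for the other comparisons because the groups share fewer than 2 mouse numbers. The shallowest library, stimulated WT mouse 5 with 8085463 counts, limits the stimulated comparison, and Batf3 was not detectable at this depth beyond 3 counts.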
